A study of Mus musculus with 2 samples.

Results

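The Notch pathway genes described here are 3 ligands (Dll4, Jag1, Jag2), 4 receptors (Notch1, Notch2, Notch3, Notch4) and 3 target genes (Hes1, Hey1, Heyl). They were chosen by name as members of the pathway, with earlier results of these data known. They were matched by Ensembl identifier, and all 10 were among the 27040 genes listed in both libraries. Notch signaling runs between touching cells: a ligand in the membrane of one cell binds a receptor on its neighbor, the receptor is cut, and its intracellular part enters the nucleus and works with the DNA-binding protein RBPJ to switch on target genes of the HES and HEY families. In blood vessels the pathway is known for arterial identity and for the sorting of tip and stalk cells in a sprout, both through endothelial ligands and receptors, and for the maturation and upkeep of mural cells (pericytes and smooth muscle cells) through NOTCH3.

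Both libraries came from the stria vascularis of the mouse cochlea, a secretory epithelium with a dense capillary bed. One was made from sorted cells of Tie2-GFP mice, in which the Tek (Tie2) promoter drives green fluorescent protein in endothelial cells (ECs), and the other from sorted cells of NG2-DsRed mice, in which the Cspg4 (NG2) promoter drives a red fluorescent protein in pericytes (PCs). Each pooled 20 cochleae of 10 animals aged 1 to 3 months, so that there was 1 library per reporter line and no replicate. The reporters mark the sorted cells, and neither line carried a treatment or a second allele in the labels. No test between conditions was therefore possible, and every interval given is a 95% interval for counting error only.

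Cell barcodes were classed by marker genes, none of which is a member. An EC barcode had a UMI (1 counted molecule) for at least 4 of Pecam1, Cdh5, Cldn5, Flt1, Egfl7 and Ramp2. A mural barcode had at least 3 of Pdgfrb, Rgs5, Vtn and Cspg4 and at most 1 of the EC genes, and was called contractile with at least 3 summed UMIs of Acta2, Tagln and Myh11. Intermediate cells, the pigment cells of the stria, had a UMI for each of Dct, Tyr and Kcnj10. The Tie2-GFP library held 633 barcodes and 5432289 UMIs, with 379 EC, 87 intermediate and 4 mural barcodes. The NG2-DsRed library held 201 barcodes and 1232599 UMIs, with 95 mural barcodes (39 contractile, 56 other), 58 EC and 23 intermediate barcodes. The libraries shared 0 barcode sequences, and 163 and 23 barcodes met no class, those of the Tie2-GFP library with a median of 75.6% mitochondrial UMIs. Median depth was 7431 UMIs in EC barcodes of the Tie2-GFP library, 9146 in EC and 3008 in mural barcodes of the NG2-DsRed library, and 15955 and 10383 in the intermediate barcodes. Markers not used in the rule were in place: 6 of 6 EC markers were detected in both EC classes and 6 of 6 mural markers in the mural class, where Kdr, Tek and Vwf were at 0 UMIs. The pigment gene Tyrp1 was at 0 in every class, the intermediate one included. Hemoglobin genes were detected in EC barcodes and held most of the UMIs of 1 of them. Of 3 Schwann cell markers, 2 were detected in intermediate barcodes, at 930 CPM in the Tie2-GFP and 767.5 CPM in the NG2-DsRed library. All 5 marginal cell markers were detected in Tie2-GFP intermediate barcodes, at 252 CPM (0 to 11150 per barcode), and 0 in NG2-DsRed ones.

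Barcodes with both programs touch several results and are given beside them. Among EC barcodes, 25 of 379 in the Tie2-GFP library and 31 of 58 in the NG2-DsRed library also had a UMI for at least 3 of the 4 mural genes. They were deeper, with a median of 17499 UMIs against 7259.5 in the rest of the Tie2-GFP EC barcodes and of 10962 against 6617 in the NG2-DsRed library. All 6 mural markers outside the rule were detected in EC barcodes, where they summed to 417 CPM (0 to 4347 per barcode) in the Tie2-GFP library and 1475 CPM (0 to 5465) in the NG2-DsRed library, against 5194 CPM (775 to 13770) in mural barcodes. In the mural barcodes 3 of the 6 EC markers were detected, at 483 CPM in sum. In the other mural barcodes Esam was the only 1 of them, at 408 CPM. Of the 4 fibrocyte markers, 3 were detected in mural barcodes, at 251 CPM with Dcn at 0. All 4 basal cell markers were detected in mural barcodes too, at 806 CPM in sum against 191 CPM in NG2-DsRed ECs. Of these sums Nr2f2, also a venous gene, made 710 and 186 CPM. Whether barcodes with both programs hold 1 cell or 2 was not tested.

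Dll4 and Notch3, whose levels parted ECs from mural barcodes of the NG2-DsRed library by the widest ratio in each direction, are shown with the sequence before their starts (GRCm38.p6, RefSeq). Dll4 (ENSMUSG00000027314) lies on the plus strand of chromosome 2 and Notch3 (ENSMUSG00000038146) on the minus strand of chromosome 17. Antisense or opposite-strand transcripts overlap both (Gm14207 and Gm17276), and whether counting used strand is not given in the sources used here. The 250 bases upstream of each start, 5′ to 3′ on the gene's strand, are chr2:119325534-119325783 and chr17:32166891-32167140, with the GC box GGGCGG in capitals on either strand (CCGCCC).
Dll4: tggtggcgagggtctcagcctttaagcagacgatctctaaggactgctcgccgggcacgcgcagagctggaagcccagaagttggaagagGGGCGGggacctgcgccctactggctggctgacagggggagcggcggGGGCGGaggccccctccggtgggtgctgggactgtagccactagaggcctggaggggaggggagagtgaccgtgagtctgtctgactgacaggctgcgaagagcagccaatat
Notch3: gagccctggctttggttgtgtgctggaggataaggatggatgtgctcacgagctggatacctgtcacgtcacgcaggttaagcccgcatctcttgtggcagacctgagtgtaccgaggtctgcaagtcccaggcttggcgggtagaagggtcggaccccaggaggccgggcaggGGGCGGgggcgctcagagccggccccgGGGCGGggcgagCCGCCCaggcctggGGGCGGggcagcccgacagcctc
The Dll4 window held 2 GC boxes and the Notch3 window 4, and 5 of the 7 members with a window in the RefSeq table held at least 1, beside 32.7% of all 32851 windows. The RBPJ core TGGGAA was in 0 of the 7 windows and in 21.6% of all, the ETS core CCGGAA in 0 and 12.0%, and the HES site CACGTG in 0 and 6.02%, each on both strands. Hes1, Hey1 and Heyl had no window in this table.

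The ligands were divided between the vascular cell types. In CPM (UMIs of a gene per 1000000 UMIs, summed over the barcodes of a class), Dll4, the ligand known from arterial and tip cells, reached 99.0 (88.8 to 110.1) in Tie2-GFP ECs and 77.1 (56.0 to 103.5) in NG2-DsRed ECs. It had 0 UMIs in 95 mural barcodes, where 3 counts would have been 9.30 CPM, and 0 UMIs in both intermediate classes. Within the NG2-DsRed library, Dll4 was therefore at least 8.29-fold higher in ECs than in mural barcodes, taking 3 counts for the class at 0. Such a bound leaves out the counting error of the other class, here and below. The 95% interval of this log2 ratio began at 2.69, which is a smaller fold. Jag2, a second ligand of endothelium, followed the same division. Its level was 94.3 CPM (84.4 to 105.2) in Tie2-GFP ECs, 38.5 CPM (24.2 to 58.4) in NG2-DsRed ECs and 0 in mural and intermediate barcodes, which made it at least 4.14-fold higher in ECs than in mural barcodes of 1 library.

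Jag1, a ligand that both ECs and smooth muscle cells are known to carry, lay the other way. It reached 372 CPM (308 to 445) in mural barcodes against 117.4 CPM (91.0 to 149) in NG2-DsRed ECs and 63.5 CPM (55.3 to 72.5) in Tie2-GFP ECs. The mural level was 3.17-fold that of ECs in the same library (log2 ratio of EC to mural −1.66, interval −2.12 to −1.22). Of the 3 member ligands, mural barcodes had UMIs of Jag1 alone, 120 of 120, whereas in Tie2-GFP ECs the 882 ligand UMIs were spread over all members, 38.5% Dll4, 36.7% Jag2 and 24.7% Jag1. In NG2-DsRed ECs, of the same library as the mural barcodes, the 133 ligand UMIs were 50.4% Jag1, 33.1% Dll4 and 16.5% Jag2. Without barcodes of both programs, 57 remained in these ECs, 45.6% Dll4, 36.8% Jag1 and 17.5% Jag2. UMIs count captured 3′ ends and are not scaled by transcript length, and capture can differ between genes, so these shares compare the classes rather than the genes. Intermediate barcodes had 6 UMIs of Jag1 in the Tie2-GFP library (4.57 CPM) and 0 in the NG2-DsRed library.

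The difference in Jag1 also held per barcode once depth was equal. A UMI of Jag1 was found in 61.1% of mural (58 of 95) and 63.8% of EC barcodes (37 of 58) of the NG2-DsRed library as deposited. With every barcode thinned to 2000 UMIs, which left out 19 mural barcodes under that depth, the shares were 48.7% (37.0 to 60.4) and 22.4% (12.5 to 35.3). Dll4 was found in 50.1% of Tie2-GFP ECs as deposited and in 18.2% after thinning. It was found in 0 of 87 intermediate barcodes of that library, with an interval up to 4.15%, and in 0 of 95 mural barcodes, up to 3.81%. These limits are on barcodes with a UMI, not on cells that express the gene, and mural barcodes were the shallower class. In Tie2-GFP ECs, 100 of 379 barcodes had UMIs of both Dll4 and Jag2, 90 of Dll4 without Jag2 and 78 of Jag2 without Dll4.

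**Figure D1:**
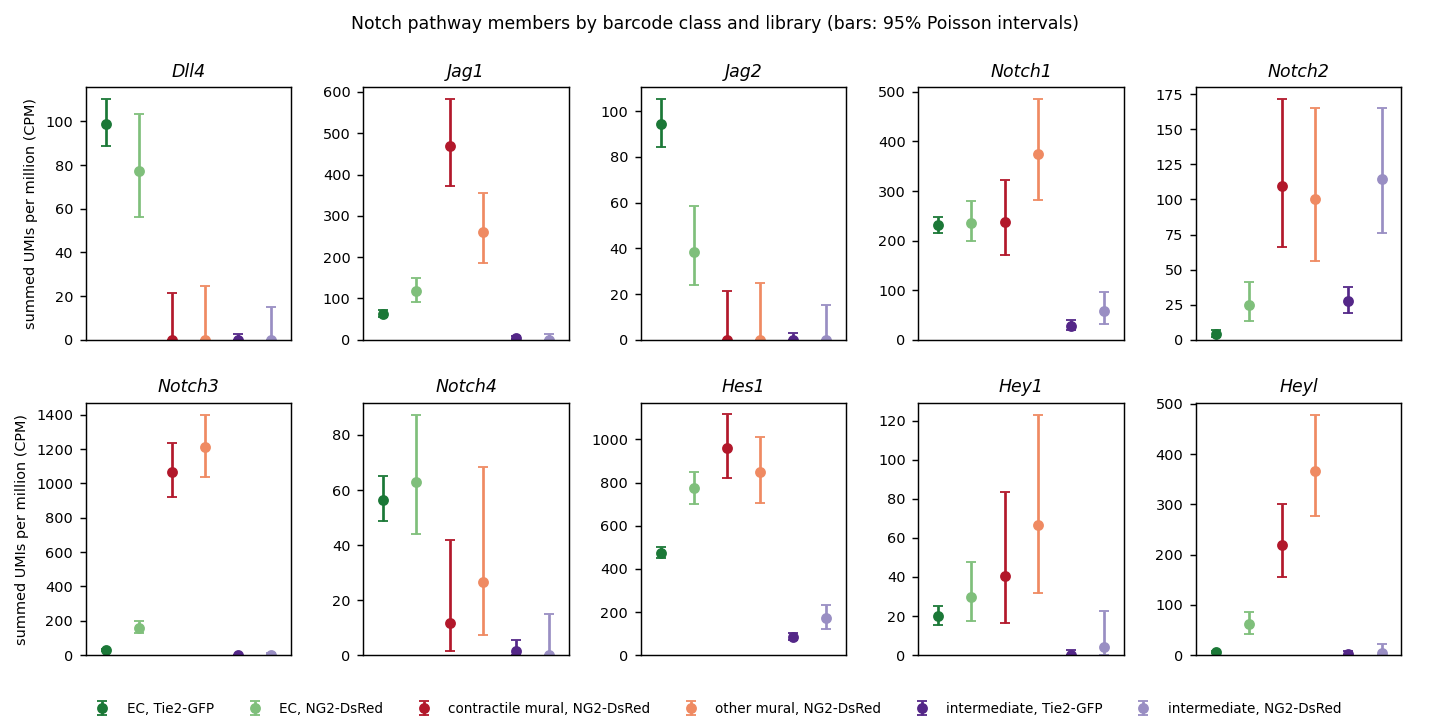
Level of each member in CPM (summed over the barcodes of a class, each panel on its own linear scale) in EC, contractile mural, other mural and intermediate barcodes of the Tie2-GFP and NG2-DsRed libraries; bars are 95% Poisson intervals for counting error. Dll4 and Jag2 were at 0 in mural barcodes, Notch3 was at 1069 CPM in contractile and 1210 CPM in other mural barcodes, and Notch1 lay between 230.6 and 374 CPM in every vascular class.

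From the highest class to the lowest, neighbors in the order overlapped within counting error for some members and not for others. For Jag1 the contractile mural, other mural, NG2-DsRed EC and Tie2-GFP EC levels each lay apart from the next, whereas for Notch1 all 4 of these classes overlapped their neighbors. For Notch3, Heyl and Hes1 the contractile and other mural levels overlapped, and both EC levels lay below them and apart from each other, except that the NG2-DsRed EC level of Hes1 overlapped the mural ones.

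Among the receptors, Notch3, the receptor known from mural cells, had the widest range. It reached 1134 CPM (1021 to 1257) in mural barcodes against 161 CPM (130 to 198) in NG2-DsRed ECs, 27.9 CPM (22.6 to 34.1) in Tie2-GFP ECs and 0 in both intermediate classes. The mural level was 7.04-fold that of ECs within the NG2-DsRed library (log2 −2.82, interval −3.16 to −2.48). A UMI of Notch3 was found in 90.5% of mural (86 of 95) and 48.3% of EC barcodes (28 of 58) of this library, and in 77.6% and 22.4% after thinning.

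What ECs held of Notch3 lay almost wholly in the barcodes with both programs. In the Tie2-GFP library these 25 barcodes carried 12.5% of the UMIs of all EC barcodes but 94 of the 96 Notch3 UMIs (97.9%, 92.7 to 99.8), leaving 2 UMIs in the other 354 barcodes. In the NG2-DsRed library the 31 barcodes carried 62.9% of EC UMIs and 84 of 92 Notch3 UMIs (91.3%, 83.6 to 96.2). Against NG2-DsRed ECs with fewer than 3 mural genes, the mural level of Notch3 was 30.1-fold (log2 −4.91, interval −6.13 to −3.92), since the EC level then was 37.7 CPM. That EC level came from 8 UMIs in 3 of 27 barcodes, 6 of them in 1 barcode. The mural gene Pdgfrb, which was part of the mural rule, had 98.3% of its Tie2-GFP EC UMIs in the barcodes with both programs.

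Notch1, the receptor that ECs are best known for, differed less between ECs and mural barcodes. It lay at 230.6 CPM (215 to 247) in Tie2-GFP ECs, 236.5 CPM (198 to 280) in NG2-DsRed ECs and 300.6 CPM (244 to 367) in mural barcodes. The log2 ratio of EC to mural in the NG2-DsRed library was −0.35 (−0.73 to 0.05), an interval that held equality and reached 2-fold on neither side. With EC barcodes of fewer than 3 mural genes it was −0.75 (−1.33 to −0.19), and with Tie2-GFP ECs −0.38 (−0.69 to −0.06), so that equality lay outside both of these intervals. After thinning, Notch1 was found in 35.4% of Tie2-GFP EC, 34.5% of NG2-DsRed EC and 44.7% of mural barcodes. Intermediate barcodes were lower, at 28.2 CPM (19.8 to 38.8) and 57.1 CPM (31.2 to 95.9).

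Notch4, a receptor known from endothelium, reached 56.5 CPM (48.8 to 65.0) and 63.1 CPM (44.2 to 87.3) in the EC classes against 18.6 CPM (6.82 to 40.5, 6 UMIs in 6 barcodes) in mural barcodes, a log2 ratio of 1.76 (0.50 to 3.30) within the NG2-DsRed library. Of the 24 NG2-DsRed EC barcodes with Notch4, all 24 also had Notch1, as did 109 of 138 in the Tie2-GFP library, beside 81.0% and 75.7% of all EC barcodes of these libraries with Notch1. Notch2, a receptor of many tissues, went the other way. It was at 105.4 CPM (73.0 to 147) in mural, 114 CPM (76.0 to 165) in NG2-DsRed intermediate and 24.5 CPM (13.4 to 41.2) in NG2-DsRed EC barcodes, with 12 of its 14 EC UMIs in barcodes with both programs.

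Receptor makeup thus differed between the classes. Of 1096 receptor UMIs in Tie2-GFP ECs, 72.3% were Notch1, 17.7% Notch4, 8.76% Notch3 and 1.28% Notch2. Of 503 receptor UMIs in mural barcodes of the NG2-DsRed library, 72.8% were Notch3, 19.3% Notch1, 6.76% Notch2 and 1.19% Notch4. These classes come from different libraries, so library and cell type cannot be told apart between them. ECs of the NG2-DsRed library lay between the 2 classes, with 48.7% Notch1 and 33.2% Notch3 of 277 receptor UMIs. With the barcodes of both programs left out, Notch3 made 0.233% of 857 receptor UMIs in Tie2-GFP ECs. In NG2-DsRed ECs Notch3 then made 13.1% (5.84 to 24.2) of 61, with 6 of its 8 UMIs in 1 barcode.

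**Figure D2:**
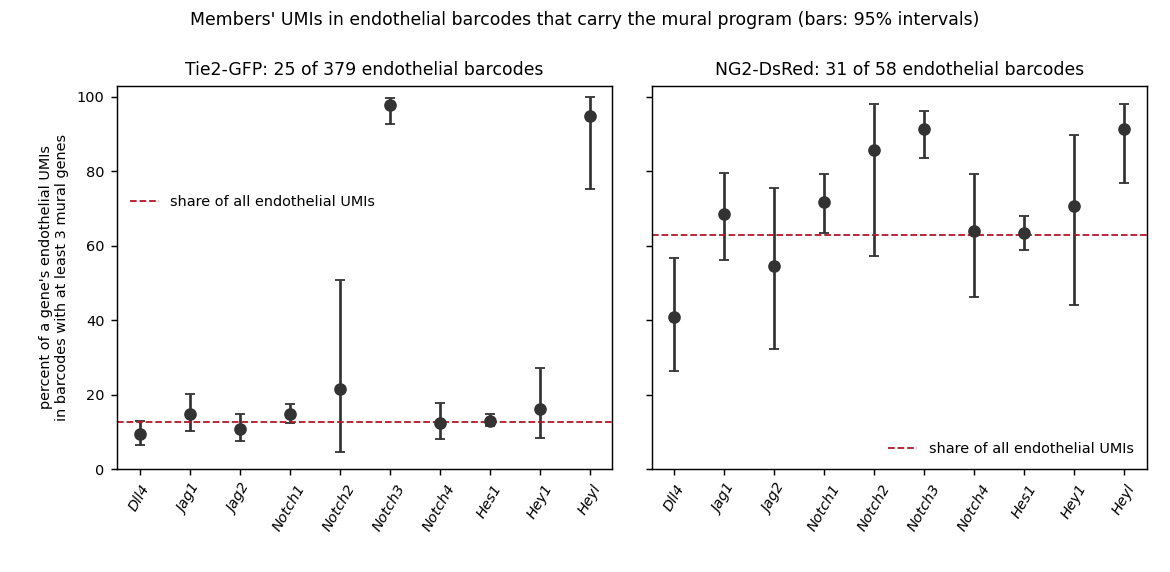
Percent of each member's EC UMIs that lay in EC barcodes with at least 3 mural genes, in the Tie2-GFP (25 of 379 barcodes) and NG2-DsRed libraries (31 of 58); bars are 95% binomial intervals and the dashed line is the share of the UMIs of all genes, 12.5% and 62.9%. Notch3 and Heyl stand at 91.3% to 97.9% in both libraries, and in the Tie2-GFP library the other members lie between 9.41% and 21.4%.

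The target genes are transcriptional repressors that Notch induces, but other signals reach them too. Heyl, known from smooth muscle and pericytes, reached 288 CPM (233 to 353) in mural barcodes, 61.3 CPM (42.7 to 85.3) in NG2-DsRed ECs and 5.82 CPM (3.56 to 8.99) in Tie2-GFP ECs. The mural level was 4.70-fold that of ECs in its library (log2 −2.23, interval −2.84 to −1.66). As for Notch3, the barcodes with both programs held 19 of 20 Heyl UMIs in Tie2-GFP ECs and 32 of 35 in NG2-DsRed ECs. Without them the log2 ratio was −4.35 (−6.65 to −2.76), from 3 UMIs in ECs. Of the 46 mural barcodes with Heyl, 44 also had Notch3, beside 90.5% of all mural barcodes with Notch3, while 42 had Notch3 without Heyl.

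Hes1, the most widely used target of the pathway, was at 908 CPM (807 to 1018) in mural, 772 CPM (702 to 848) in NG2-DsRed EC and 475 CPM (453 to 499) in Tie2-GFP EC barcodes. The EC to mural log2 ratio within the NG2-DsRed library was −0.23 (−0.45 to −0.02). Its UMIs were spread unevenly over barcodes, with up to 76 in 1 Tie2-GFP EC barcode and a mean of 5.57 in the 293 that had any. Intermediate barcodes were at 83.7 CPM (68.8 to 100.9) and 171 CPM (124 to 232). Hey1, known from arterial endothelium, was low in every class, with 19.8 CPM (15.4 to 25.1) in Tie2-GFP ECs, 29.8 CPM (17.3 to 47.7) in NG2-DsRed ECs and 52.7 CPM (30.7 to 84.4) in mural barcodes. Its EC to mural log2 ratio in the NG2-DsRed library was −0.82, with 17 UMIs on each side and an interval (−1.88 to 0.24) that held both equality and a 2-fold difference.

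Read as a group against the whole library, 3 of 10 members were at least 2-fold higher in EC than in mural barcodes of the NG2-DsRed library (Dll4, Jag2, Notch4) and 4 at least 2-fold lower (Jag1, Notch2, Notch3, Heyl). Among the 6468 genes with at least 20 UMIs over both classes, 14.4% were at least 2-fold higher and 16.0% at least 2-fold lower. The median log2 ratio was −0.58 over the members and −0.09 over all these genes. When thinned to 2000 UMIs, or restricted to EC barcodes with at most 1 mural gene and mural barcodes with no EC gene, 0 members were called higher. Dll4, Jag2 and Notch4 then fell under 20 UMIs. With EC barcodes of fewer than 3 mural genes, 1 of 8 members was higher (Dll4, at least 13.2-fold). There 5 were lower, Jag1, Notch2, Notch3, Heyl and also Hey1 (−1.16, −2.95 to 0.34). The median log2 ratio was then −1.53 over these members and −0.13 over 4810 genes. The share of all genes past 2-fold is not given for this setting.

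With ECs of the Tie2-GFP library in place of those of the NG2-DsRed library, 3 members were higher and 5 lower than in mural barcodes, beside 21.0% and 24.3% of 9792 genes. Dll4 was at least 10.7-fold and Jag2 at least 10.1-fold higher, and Notch4 had a log2 ratio of 1.60. Notch3 (−5.34), Heyl (−5.63), Notch2 (−4.69), Jag1 (−2.55) and Hey1 (−1.41) were lower. This comparison crosses libraries that were sorted, prepared and counted apart, with different software versions, so that library and cell type cannot be told apart in it.

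**Figure D3:**
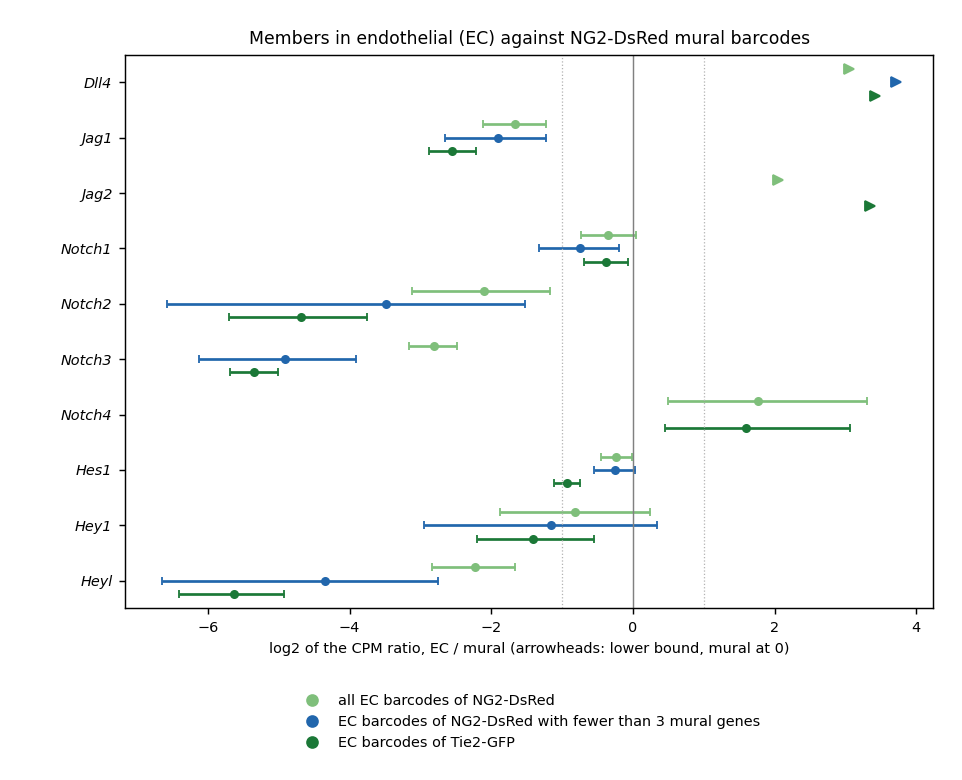
Log2 ratio of CPM in EC to CPM in NG2-DsRed mural barcodes, for members with at least 20 UMIs. The ECs are all NG2-DsRed ECs, those with fewer than 3 mural genes and Tie2-GFP ECs. Bars are 95% intervals and dotted lines mark 2-fold. Arrowheads mark bounds that take 3 counts where mural barcodes had 0 UMIs. Notch3 moved from −2.82 with all NG2-DsRed ECs to −4.91 without barcodes of both programs, and Notch1 lay between −0.75 and −0.35 throughout.

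The EC classes of both libraries were also set side by side, since the sorted line differed and the barcode rule did not. Notch1 (log2 ratio of Tie2-GFP to NG2-DsRed −0.04, interval −0.30 to 0.24) and Notch4 (−0.16, −0.68 to 0.40) were close. Jag2 was higher in Tie2-GFP ECs (1.29, 0.67 to 1.99), and Notch3 (−2.53), Notch2 (−2.59) and Heyl (−3.40) were lower, 1 and 3 members beside 11.9% and 13.8% of 9730 genes past 2-fold. The part with both programs differed along with them, at 6.60% of Tie2-GFP and 53.4% of NG2-DsRed EC barcodes. Without them, Notch3 was at 0.666 CPM in Tie2-GFP and 37.7 CPM in NG2-DsRed ECs (2 and 8 UMIs), and Heyl at 0.333 and 14.2 CPM (1 and 3 UMIs). Of the 8 Notch3 UMIs, 6 lay in 1 barcode. Jag1 (log2 ratio −0.89, −1.29 to −0.47) and Hes1 (−0.70, −0.85 to −0.55) were also lower in Tie2-GFP ECs, by less than 2-fold. Without barcodes of both programs, Jag2 was at 96.2 CPM in Tie2-GFP and 47.2 CPM in NG2-DsRed ECs. Jag1 was then at 61.9 and 99.05 CPM, and Hes1 at 473 and 759 CPM. Between intermediate barcodes, the log2 ratio of Tie2-GFP to NG2-DsRed was −2.06 (−2.81 to −1.29) for Notch2. It was −1.03 (−1.56 to −0.49) for Hes1 and −1.02 (−1.94 to −0.02) for Notch1. The other members had under 20 UMIs there. The median over 7259 genes was −0.14, and the share of all genes past 2-fold is not given for this comparison.

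The study divides strial PCs by clustering into a contractile kind, a small part of PCs, and a second kind marked by Kcnj8 and Abcc9. The mural barcodes were instead split at 3 UMIs of contractile genes, which called 39 of 95 contractile, so these groups are not the study's kinds. The 5 contractile markers outside the rule summed to 4312 CPM (283 to 11940 per barcode) in contractile and 1918 CPM (0 to 9682) in other mural barcodes. Of these markers Cnn1 was at 0 UMIs in both groups, and Pln was at 0 in other mural barcodes. Jag1 reached 468 CPM (372 to 582) in contractile and 261 CPM (185 to 356) in other mural barcodes, a log2 ratio of 0.84 (0.28 to 1.44). Heyl lay the other way, at 219.6 CPM (155 to 301) and 367 CPM (277 to 478), a log2 ratio of −0.74 (−1.38 to −0.12). Notch1 was at 237 CPM (170 to 322) and 374 CPM (283 to 486), a log2 ratio of −0.66 (−1.28 to −0.05). None of these intervals held equality, and each ended past 2-fold while its value did not.

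Notch3 was close in both, at 1069 CPM (921 to 1235) and 1210 CPM (1040 to 1399). Its log2 ratio of −0.18 had an interval for counting error (−0.48 to 0.13) that reached 2-fold on neither side. The ratio became 0.17 when each barcode counted equally and 0.17 after thinning, of the other sign and outside that interval. Hes1 (0.18, −0.17 to 0.52) and Notch2 (0.13, −0.92 to 1.21) also had intervals that held equality. Of 6 members with at least 20 UMIs, 0 were at least 2-fold higher and 0 at least 2-fold lower in contractile barcodes, beside 8.4% and 9.68% of 3119 genes. Contractile barcodes were deeper, with a median of 3822 UMIs against 2448.5, as a split at a fixed number of UMIs tends to make them. As deposited, Jag1 was found in 79.5% of contractile and 48.2% of other mural barcodes, and Notch1 in 59.0% and 48.2%. Thinning left out 2 of 39 contractile and 17 of 56 other mural barcodes, which were too shallow. After it, Jag1 was found in 59.5% (42.1 to 75.2) of contractile and 38.5% (23.4 to 55.4) of other mural barcodes. Notch1 was then found in 29.7% (15.9 to 47.0) and 59.0% (42.1 to 74.4), the reverse of its order as deposited.

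Within the 379 Tie2-GFP ECs, 166 barcodes leaned arterial and 43 venous, and the rest were in neither group. Arterial-leaning barcodes had at least 3 summed UMIs of Gja4, Gja5, Bmx, Sema3g and Efnb2, and more than of Nr2f2, Slc38a5, Vcam1 and Ephb4. Venous-leaning barcodes met the reverse rule. Both groups were deeper, with medians of 9272 and 9651 UMIs against 7431 over all these ECs. Hey1 was at 26.4 CPM (19.5 to 34.8, 49 UMIs) in arterial-leaning and 6.65 CPM (1.37 to 19.4, 3 UMIs) in venous-leaning barcodes, a log2 ratio of 1.99 with a wide interval (0.35 to 4.31). In NG2-DsRed ECs its log2 ratio was −1.06 (−2.83 to 0.59), from 6 and 9 UMIs. It was the 1 member of 8 with at least 20 UMIs past 2-fold, with 0 lower, beside 6.08% and 3.52% of 8402 genes. Jag2 (109 against 55.5 CPM, log2 0.98, interval 0.37 to 1.64) and Jag1 (80.7 against 42.1 CPM, log2 0.94, interval 0.24 to 1.71) lay just under 2-fold. Within the study's limits on barcodes both passed it (1.01 and 1.00), and without barcodes of both programs Jag1 did (1.09) and Jag2 did not (0.89). Dll4 had a log2 ratio of 0.46 whose interval (−0.08 to 1.05) held equality, and so had Notch1 (0.05, −0.26 to 0.37) and Notch4 (0.41, −0.31 to 1.20).

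Hes1 was lower in arterial-leaning barcodes, at 452 CPM (422 to 483) against 814 CPM (733 to 902) in venous-leaning ones, a log2 ratio of −0.85 (−1.03 to −0.67). Without barcodes of both programs the levels were 492 CPM (457 to 527) and 627 CPM (550 to 711), a log2 ratio of −0.35 (−0.56 to −0.14). The size of this difference thus depended on 4 of the 43 venous-leaning and 15 of the 166 arterial-leaning barcodes. Of the 367 venous-leaning UMIs, 76 lay in 1 barcode, and without barcodes of both programs the largest count was 34. After thinning, Hes1 was found in 50.6% (42.75 to 58.4) of arterial-leaning and 47.6% (32.0 to 63.6) of venous-leaning barcodes, so the shares were close.

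**Figure D4:**
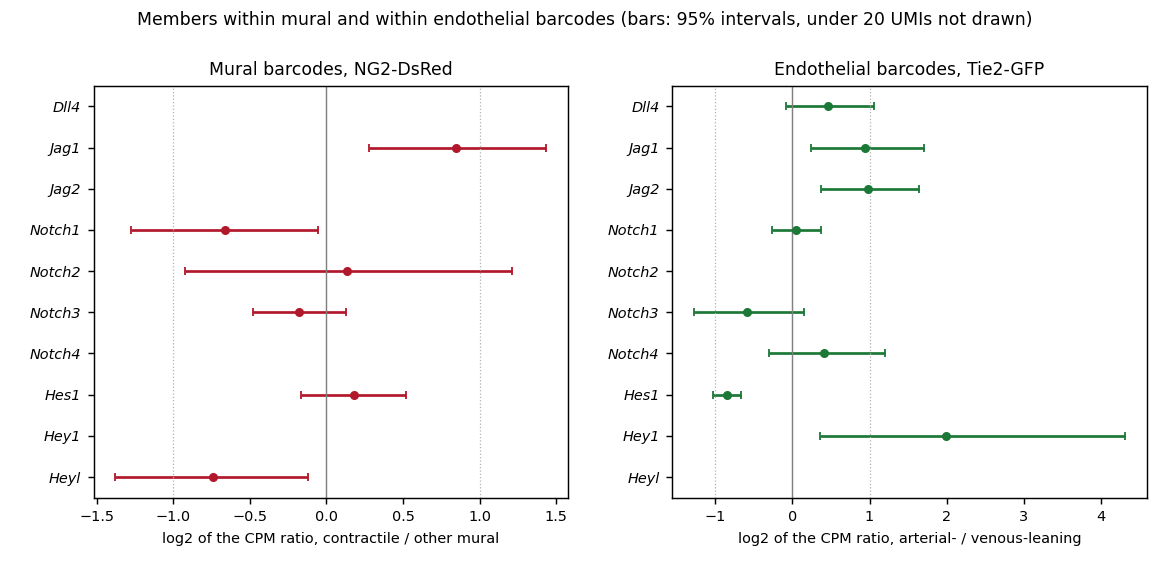
Log2 ratio of CPM of members with at least 20 UMIs between contractile and other mural barcodes of the NG2-DsRed library and between arterial-leaning and venous-leaning ECs of the Tie2-GFP library; bars are 95% intervals and dotted lines mark 2-fold. Jag1 lies at 0.84 on the contractile side, Hey1 at 1.99 on the arterial side and Hes1 at −0.85 on the venous side.

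Against intermediate cells, which are neither endothelial nor mural, most members with at least 20 UMIs were higher in vascular barcodes. In the Tie2-GFP library 8 of 10 members were at least 2-fold higher in ECs and 1 was lower, beside 28.4% and 19.6% of 10293 genes. The EC levels were at least 43.4-fold for Dll4, 41.3-fold for Jag2, 12.2-fold for Notch3 and 8.67-fold for Hey1, all at 0 UMIs in 87 intermediate barcodes of more than 2 times the depth per barcode. The bound for Notch3 rested on the barcodes with both programs, without which ECs had 2 UMIs (0.666 CPM), under both the minimum of 20 UMIs and the 2.28 CPM that 3 counts make in the intermediate class. The member that was lower was Notch2, at 4.08 CPM (2.23 to 6.84) in ECs and 27.4 CPM (19.2 to 37.9) in intermediate barcodes (log2 −2.75, interval −3.75 to −1.82).

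In the NG2-DsRed library, 5 of the 6 members with at least 20 UMIs were at least 2-fold higher in mural than in intermediate barcodes and 0 lower, beside 27.0% and 17.5% of 4961 genes. Notch3 was at least 92.6-fold and Jag1 at least 30.4-fold higher, and Heyl had 93 UMIs against 1. Notch2 was the member that stayed level between them (log2 −0.12, interval −0.88 to 0.66). Intermediate barcodes of both libraries had 9.31% and 5.55% of mitochondrial UMIs at the median, and only 6 and 7 of them lay within the limits of the study on barcodes.

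The other genes of the pathway were described from a list of 42 ligands, modifiers, proteases, nuclear partners and targets. In EC against mural barcodes of the NG2-DsRed library, 3 of the 26 with at least 20 UMIs were at least 2-fold higher and 3 lower, counts no larger than the background of 14.4% and 16.0% of all genes gives. Among the higher ones were Mfng, a glycosyltransferase that tunes which ligand a receptor answers to (78.8 CPM in ECs and 0 in mural barcodes, at least 8.48-fold) and the ligand Dll1 (log2 2.35, interval 0.28 to 5.50, 2 UMIs in mural barcodes). Lower were Dtx3, of the Deltex family (log2 −2.21, interval −2.62 to −1.81), Neurl1b, of a family that acts on ligands (−1.92, −3.46 to −0.54), and the target Hey2 (−1.75, −2.61 to −0.93). With EC barcodes of fewer than 3 mural genes, 0 of 18 listed genes were higher and 7 lower. The median log2 ratio of the list was then −0.63, beside −0.13 over 4810 genes, and with all EC barcodes −0.46 beside −0.09. The share of all genes past 2-fold is not given without barcodes of both programs. Nrarp, a target that feeds back on the pathway, was at 128 CPM in ECs and 139 CPM in mural barcodes of this library. It was at 40.8 CPM (34.3 to 48.1) in Tie2-GFP ECs, a log2 ratio of −1.65 (−2.07 to −1.22) to NG2-DsRed ECs. In intermediate barcodes of both libraries it was at 0.

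The same list gave 5 higher and 8 lower of 32 genes in Tie2-GFP EC against mural barcodes, beside 21.0% and 24.3% of all genes. In Tie2-GFP EC against intermediate barcodes it gave 7 higher and 4 lower of 32, beside 28.4% and 19.6% of all genes. Its median log2 ratio there was 0.04, beside 0.17 for all genes. For the members the median was 4.51 with 0.5 counts added at zeros, and 3.365 with 3 counts taken there. The members' median took in Notch3, whose EC UMIs lay mostly in barcodes with both programs. In mural against intermediate barcodes of the NG2-DsRed library the list gave 7 higher and 3 lower of 18, beside 27.0% and 17.5%. Between contractile and other mural barcodes it gave 0 higher and 4 lower of 13, beside 8.4% and 9.68% of all genes, with a median log2 ratio of −0.84 beside 0.01 for all genes. Among the latter were the ubiquitin ligase Itch (log2 −1.64), the coactivator Maml2 (−1.62) and the receptor-cutting protease Adam10 (−1.49), each with 6 to 27 UMIs a side. Between arterial-leaning and venous-leaning ECs it gave 1 higher, the Notch inhibitor Numb (1.25, 0.26 to 2.42), and 2 lower, Dll1 (−1.26, −2.40 to −0.04) and Hes6 (−1.13, −2.37 to 0.22), of 30, beside 6.08% and 3.52% of all genes.

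Genes most like a member were sought over 6 profiles, EC and intermediate of both libraries and the contractile and other mural barcodes, by Pearson r of log2(CPM + 10) among 7074 genes. Closest to Notch3 were Lurap1l, Gucy1a1 and Rarres2 (r of 0.999 each), to Heyl Gas1, Tmem94 and Col1a2 (0.998 to 0.999), to Jag1 Nin, Gm13889 and Flna (0.997 to 0.998) and to Dll4 Pthlh, Ptgis and Myct1. Dll4 was at 0 in 4 of these profiles, so that its likeness rests on its level in the 2 EC profiles. With so few profiles, which share libraries and depth, 169 to 283 genes had an r of at least 0.95 with each of these members. Among the members themselves, r with Notch3 was 0.98 for Heyl and 0.96 for Jag1, and r with Dll4 was 0.98 for Jag2.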

How the data were processed

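Single cells of 2 sorted libraries were captured with the 10x Chromium 3′ chemistry. As deposited by the authors, the values are unnormalized UMI counts for each gene in each barcode, and the submitters' processing notes name bcl2fastq 2.20.0.422 and the build mm10. The matrix headers name software version 7.0.0 for the Tie2-GFP and 3.0.0 for the NG2-DsRed library, which list 32285 and 27998 genes. Whether introns or strand were used in counting is not given in the sources used here.

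Members and gene lists were chosen with earlier results of these data known. All deposited barcodes were classed by the marker rules, and 2 NG2-DsRed barcodes that met 2 rules were in no class. No doublet caller was run, and barcodes with both programs were given apart. UMIs were summed per class and scaled to CPM by the class's total over all genes of its library, with exact Poisson intervals, Clopper-Pearson intervals for shares and conditional binomial intervals for ratios (95%). A call needed 20 UMIs over both classes and a 2-fold ratio, and 0.5 counts were added only where a class had 0. Where a class had 0 UMIs, a bound on a ratio used 3 counts there and the level of the other class without its counting error. Named pathway genes are up to 3 with the largest ratio in each direction, and Nrarp was added after its values were seen. The values of 1 pathway gene are not reported here. Thinning drew 2000 UMIs per barcode. The alternatives were the study's limits on barcodes, stricter classes, equal weights of barcodes, other denominators, thinning, no minimum of UMIs and other contractile limits. Ratios were tested on simulated data that held counting error only, so spread between barcodes was not covered. Python 3.11.15, numpy 2.4.6, scipy 1.17.1, pandas 2.3.3 and matplotlib 3.10.9 were used, with GENCODE M21 coordinates of GRCm38.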

Additional observations from a re-analysis of the deposited data

Results flagged for a closer look

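The arterial-leaning to venous-leaning ratio had opposite signs in the libraries for 3 members with at least 20 UMIs in both, a difference that was not tested. The log2 ratio of Jag1 was 0.94 in Tie2-GFP and −0.20 in NG2-DsRed ECs, that of Notch1 0.0466 and −0.45, and that of Notch4 0.41 and −0.13. The NG2-DsRed library had 23 arterial-leaning and 15 venous-leaning barcodes, of which 14 and 2 had fewer than 3 mural genes, and the intervals of all 3 ratios held equality there. With fewer UMIs the signs also differed for Hey1 (1.99 and −1.06) and Heyl (−1.72 and 0.35).

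The 4 mural barcodes of the Tie2-GFP library, with 12355 UMIs in all, entered no comparison. They had 22 UMIs of Notch3, 9 of Notch1, 6 of Hes1, 4 of Heyl and 3 of Jag1, and 0 of Dll4, Jag2, Notch2, Notch4 and Hey1. In these barcodes 3 counts would have been 243 CPM, above the EC level of each gene at 0 in both libraries, so the zeros do not part them from ECs.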

How the results depend on the processing

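No call of a member turned its direction under any alternative that could be run. The count of members higher in EC than mural barcodes of the NG2-DsRed library (3) was 0 with stricter classes, 0 after thinning and 1 with EC barcodes of fewer than 3 mural genes, an alternative chosen after seeing the data. In each, members fell under the minimum of 20 UMIs. The count lower in contractile than other mural barcodes (0) was 1 with no minimum, 1 with a split at 5 UMIs and 1 with the split made on thinned barcodes. The count lower in Tie2-GFP EC than intermediate barcodes (1) was 2 with equal weights and 0 after thinning. The count higher in arterial-leaning ECs (1) was 3 within the study's limits, 2 with stricter classes and 2 with fewer than 3 mural genes, and the count lower (0) was 2 with no minimum. The causes of these shifts in the contractile, intermediate and arterial comparisons were not tested. The remaining 68 counts under an alternative stayed within 1.5 times. For counts under an alternative, the share of all genes past 2-fold is not given. Of the log2 ratios, 494 stayed within the interval of the value reported and 51 did not, and thinning moved 40 shares of barcodes past their intervals and 30 not. Comparisons with fewer than 10 barcodes in a class were not run: the intermediate ones within the study's limits (6 or 7 barcodes) and the arterial to venous one of the NG2-DsRed library under stricter classes (1) or with fewer than 3 mural genes (2). No paired analysis was possible because each line gave 1 library and no test was made. Depth limits Notch4, Hey1 and Notch2, with 6, 17 and 34 UMIs in mural barcodes.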
